A study of Mus musculus with 6 samples.

Results

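The Hox genes are the homeobox genes of the Hoxa, Hoxb, Hoxc and Hoxd clusters, and they were taken here as every gene whose symbol is one of these stems followed by digits alone, which leaves out antisense and opposite-strand genes. The array annotation gave a probe set of their own to 37 mouse Hox genes, among 19938 genes with such a probe set. Hoxb8 was listed only on a probe set shared with Hoxb7. Each of the 37 had a single probe set, and 34 of them passed the filter on dim probe sets and entered the test among 17020 genes; Hoxb2, Hoxc13 and Hoxd12 did not.

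RNA came from chondrocytes of the growth plate, the cartilage through which long bones lengthen, of femurs and tibiae at postnatal day 30. There were 3 samples from mice with a conditional mutation of Lkb1 and 3 from control mice, all on a mixed FVB, 129S6 and C57CL/6 background, and each sample had an array to itself. Lkb1 is an older name of Stk11, the gene of a kinase that activates AMPK and related kinases. The labels name neither the Lkb1 allele nor the Cre driver that makes the mutation conditional, nor the genotype of the controls, and they do not say whether a sample was 1 mouse or a pool. Replicates are called biological without further detail, so a p-value here reflects sample-to-sample spread, which may be technical, and 3 arrays per group limit the precision.

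Hox proteins are transcription factors that bind DNA through a homeodomain, often together with TALE homeodomain cofactors of the Pbx, Meis and Pknox families. The clusters are collinear: genes at the 3′ end, with low paralog numbers, are used early and anteriorly in the embryo, and genes at the 5′ end, with high numbers, later and posteriorly. In the mouse limb, posterior paralogs of the Hoxa, Hoxc and Hoxd clusters pattern successive segments, with the paralogs numbered 10 needed for the femur, those numbered 11 for the tibia and fibula, and those numbered 13 for the foot. Hox genes stay active in skeletal cells after birth and keep a record of where in the body a cell arose.

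Levels are given as log2(intensity + 1), and a gene was called where limma's adjusted p was under 0.05. Background was set on each array at the 95% point of 1035 probe sets of olfactory receptor genes, which are not expected in cartilage; it lay between 6.40 and 6.73. Probe sets differ in how brightly they report a transcript, so levels are compared between groups within a gene and never between genes. In bulk tissue, fewer cells of a type that uses a gene and less RNA of it per cell cannot be told apart.

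Stk11 was at 7.39, 7.51 and 7.52 in mutant replicates 1, 2 and 3, against 8.68, 9.08 and 9.67 in control replicates 1, 2 and 3, and fell by 1.67 (SE 0.22, adjusted p = 0.00387). The position of its probes relative to the deletion was not analysed here. All 14 chondrocyte markers were above background on all 6 arrays, with a mean level of 11.22 to 11.30 in mutants and 11.18 to 11.39 in controls. Markers of bone marrow cells differed far more. Averaged over 26 markers of the erythroid, neutrophil and B lymphoid lists, their level was 6.38, 6.36 and 6.10 in mutant replicates 1, 2 and 3, against 8.61, 9.37 and 10.07 in control replicates 1, 2 and 3. The groups did not overlap, and control replicate 3 had the most marrow signal. The Stk11 controls stood in the same order as this signal, and the part of marrow cells in the fall of Stk11 was not tested.

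Of the 34 Hox genes tested, 4 were higher in the mutants and none was lower: Hoxc6, Hoxa10, Hoxc10 and Hoxa11. That is 11.8% of the Hox genes called higher, where 7.84% of all genes tested were called higher, and 0%, where 6.82% of all genes were called lower. At an unadjusted p under 0.05, 11 Hox genes were higher and 0 lower, against 2718 and 2306 of all genes. The median difference was 0.20 over the Hox genes tested, beside 0.03 over all genes tested. The mean was higher in the mutants for 29 of 34 Hox genes, or 85.3%, beside 55% of all genes; Hoxb13, at a difference of 0.00, is counted among the 29. All mutant arrays were above all control arrays for 14 Hox genes, or 41.2%, where 20.0% of all genes did so, and all were below for 0, where 16.7% of all genes did so. Most of these differences are small, and the members differ in how far they rise above background, so they are taken up by cluster.

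**Figure D1:**
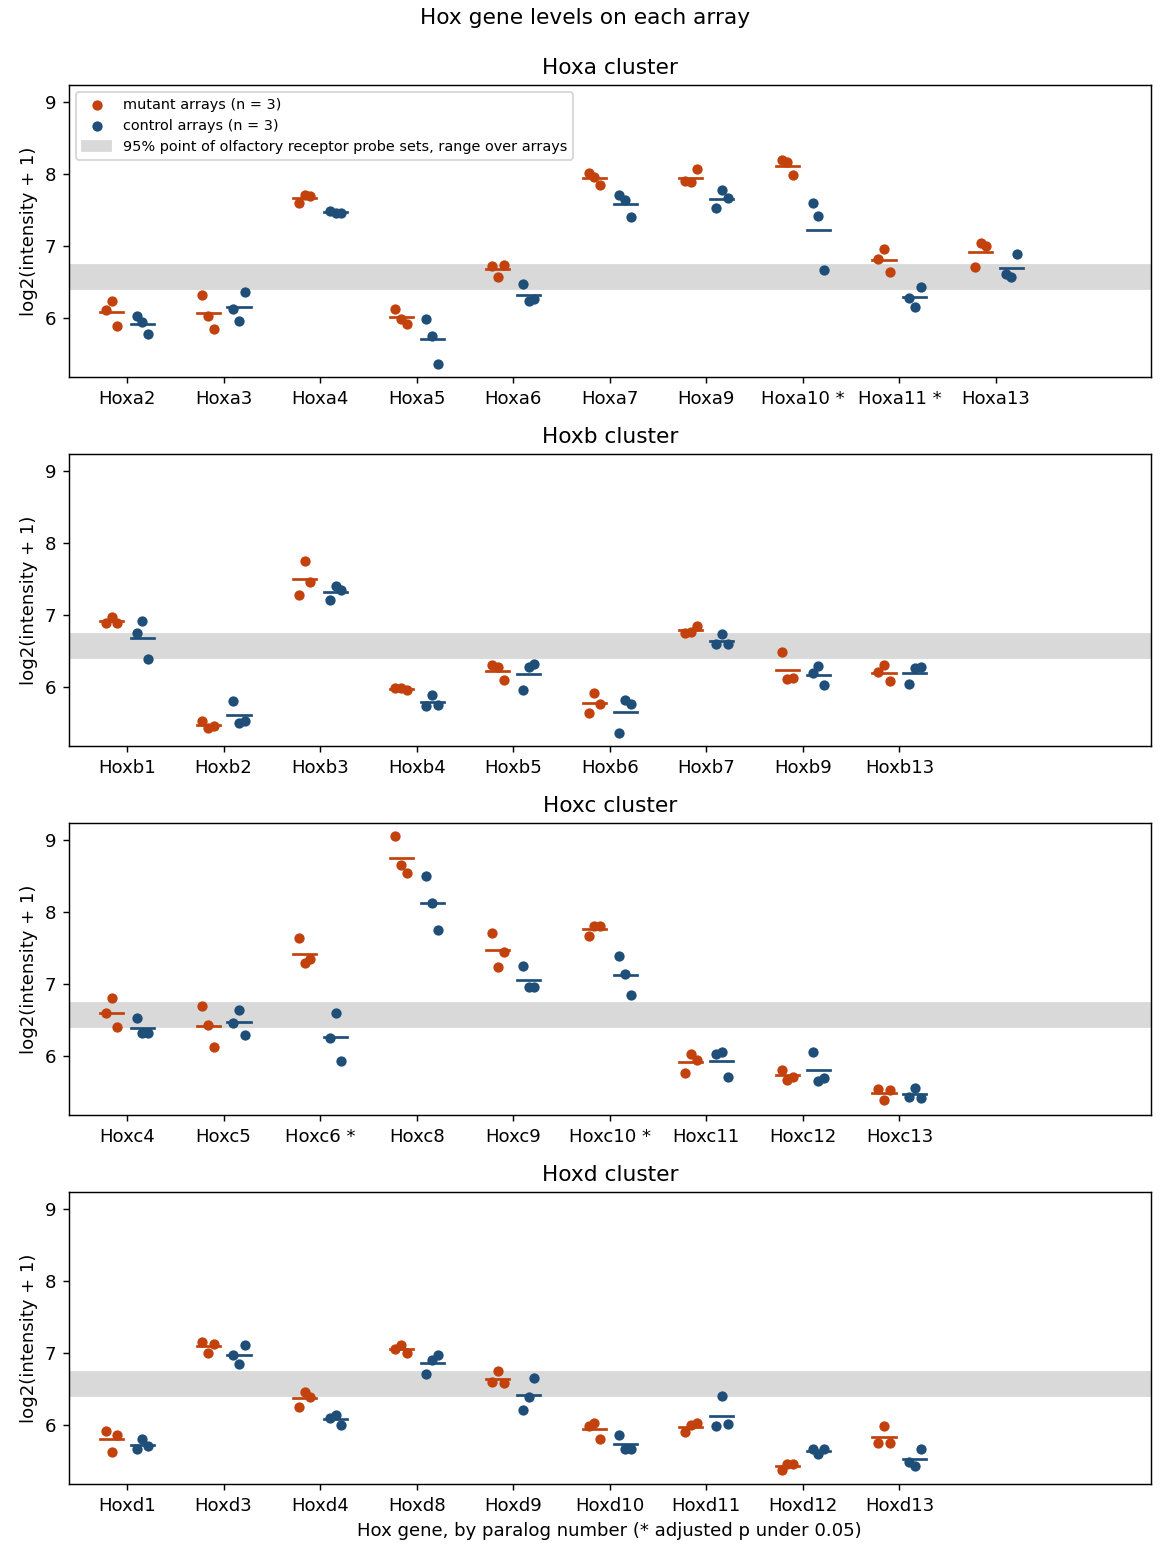
Level of each Hox gene on each array, as log2(intensity + 1), by cluster and paralog number; points are arrays (3 mutant, 3 control), short lines are group means, and the grey band is the range over arrays of the background, 6.40 to 6.73. Hoxa10, Hoxa11, Hoxc6 and Hoxc10 carry an asterisk for an adjusted p under 0.05, and their mutant arrays lie above their control arrays.

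Background divides the family. On all 6 arrays, 10 Hox genes were above it: Hoxa4, Hoxa7, Hoxa9, Hoxa10, Hoxb3, Hoxc8, Hoxc9, Hoxc10, Hoxd3 and Hoxd8. Another 9 were above it on some arrays, and 18 on none. Above background on all mutant arrays were 16 Hox genes, against 10 on all control arrays, where of all genes tested 10149 were above it on all mutant arrays, against 10189 on all control arrays. Among the 10 above background throughout, the median difference was 0.33, with 2 called, beside a median of 0.02 over the 9344 genes tested that were above background on all arrays, of which 854 were higher and 614 lower. Among the 18 at background on every array, 15 were tested, the median difference was 0.08 and 0 were called; a difference there cannot be told from a shift in background signal.

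In the Hoxc cluster, Hoxc6 and Hoxc10 were called. Hoxc6 lies in the middle of the cluster. Hoxc6 was at 7.63, 7.29 and 7.34 in mutant replicates 1, 2 and 3, and at 6.25, 6.59 and 5.93 in control replicates 1, 2 and 3. All mutant arrays were above background, while among the controls replicate 2 alone was just above it, so Hoxc6 was well measured in the mutants and close to undetected in the controls. The measured difference was 1.16 (SE 0.18, 95% interval 0.75 to 1.58, n = 3 per group), with a limma adjusted p of 0.00598. With the 2 control arrays at background raised to their background, the mutants were higher by 0.87, or 1.83-fold, which is about the difference of Hoxa10 given further on. Hoxc6 was called with any single array left out, with differences of 1.00 to 1.33 and adjusted p of 0.00702 to 0.0293.

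Hoxc10, whose paralog group patterns the thigh segment of the mouse hindlimb, was above background on all arrays. Its level was 7.67, 7.80 and 7.80 in mutant replicates 1, 2 and 3, against 7.38, 7.13 and 6.84 in control replicates 1, 2 and 3. The mutants were close together and the controls spread out, with the lowest value in control replicate 3, the array with the most marrow signal. The difference was 0.63 (SE 0.14, 95% interval 0.30 to 0.97), 1.55-fold, with an adjusted p of 0.0249. The call held without control replicate 1 or without control replicate 3 and ended without any other array, with adjusted p of up to 0.101. Without control replicates 2 and 3 the difference was 0.37 (adjusted p = 0.0946), a fit in which the lone control is assumed to vary like the mutants.

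Hoxc8 and Hoxc9, which lie between these genes on the cluster, did not pass the test. Hoxc8, which delays cartilage maturation when overexpressed in mouse chondrocytes, was at 9.05, 8.65 and 8.54 in mutant replicates 1, 2 and 3, against 8.50, 8.12 and 7.75 in control replicates 1, 2 and 3. The groups did not overlap, but the lowest mutant lay just above the highest control. The difference was 0.63 (SE 0.21, 95% interval 0.14 to 1.12, adjusted p = 0.0900), and it passed the test without control replicate 1 (0.82, adjusted p = 0.0215). That array had the least marrow signal of the controls, and the Hoxc8 controls fell as this signal rose. Hoxc9 was at 7.71, 7.24 and 7.44 in the mutants, against 7.25, 6.96 and 6.96 in the controls, a difference of 0.41 (adjusted p = 0.107) with overlapping groups.

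At both ends of the Hoxc cluster the genes lay at or near background. Hoxc4 and Hoxc5, at the 3′ end, differed by 0.21 and -0.05, and Hoxc11 and Hoxc12, toward the 5′ end, by -0.02 and -0.07, with adjusted p of 0.321 to 0.928 over these 4. Hoxc13, a gene of hair and nail, averaged 5.49 ± 0.09 in mutants and 5.47 ± 0.07 in controls (SD, n = 3 each), under the filter. The genes of this cluster above background on all 6 arrays were Hoxc8, Hoxc9 and Hoxc10, which follow each other along it. Hoxc6 was above background on all mutant arrays but on 1 of 3 control arrays.

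In the Hoxa cluster, Hoxa10 and Hoxa11 were called. Their transcription start regions, which lie on mouse chromosome 6, are printed because they are the called genes for which RefSeq start regions were at hand; 21 of the 37 Hox genes had an entry, with 23 entries in all. Each is 300 bases around a start, most of them before it, on the minus strand of GRCm38.p6, and Hoxa10 has a pair of starts that its probe set does not tell apart. Capitals mark matches to motifs searched on both strands: TGATNNAT of Hox with Pbx, TGACAG of Meis and Pknox, TTTATG of Cdx and posterior Hox proteins, TATAAA of the TATA box, and CCAAT.
Hoxa10, chr6:52234890-52235189: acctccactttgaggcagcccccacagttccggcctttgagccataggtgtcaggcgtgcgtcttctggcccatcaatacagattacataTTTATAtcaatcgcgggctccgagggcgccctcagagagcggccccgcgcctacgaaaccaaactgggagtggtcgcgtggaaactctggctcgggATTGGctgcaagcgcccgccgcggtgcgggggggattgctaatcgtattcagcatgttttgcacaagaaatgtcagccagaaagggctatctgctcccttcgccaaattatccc
Hoxa10, chr6:52240805-52241104: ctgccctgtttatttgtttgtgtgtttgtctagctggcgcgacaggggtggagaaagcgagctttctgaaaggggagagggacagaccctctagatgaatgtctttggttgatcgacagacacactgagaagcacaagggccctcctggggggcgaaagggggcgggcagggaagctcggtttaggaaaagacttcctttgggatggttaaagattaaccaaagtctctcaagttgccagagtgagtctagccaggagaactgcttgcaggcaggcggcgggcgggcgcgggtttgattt
Hoxa11, chr6:52245761-52246060: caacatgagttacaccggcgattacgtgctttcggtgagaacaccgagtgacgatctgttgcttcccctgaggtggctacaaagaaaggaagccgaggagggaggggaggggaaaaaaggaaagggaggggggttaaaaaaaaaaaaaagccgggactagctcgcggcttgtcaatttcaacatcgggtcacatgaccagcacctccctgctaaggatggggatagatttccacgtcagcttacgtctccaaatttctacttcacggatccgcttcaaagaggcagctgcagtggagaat

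The capitals in the Hoxa10 region at 52234890 are a TATAAA on the opposite strand, at bases 91 to 96 of the printed run, and a CCAAT on the opposite strand, at bases 187 to 191; they do not overlap. The other Hoxa10 region and that of Hoxa11 held no match to these letters. Over the 23 Hox entries, TGATNNAT was present in 13%, beside 8.85% of all 32851 start regions of the same length. TGACAG was in 8.7% of the Hox entries, beside 19.2% of all, TTTATG in 17.4%, beside 11.9%, and TATAAA in 13%, beside 13.6%. CCAAT was in 60.9% of the Hox entries, beside 37.4% of all. A match describes letters in this window and is no evidence of binding.

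Hoxa10, needed with its paralogs for the mouse femur, was at 8.19, 8.16 and 7.98 in mutant replicates 1, 2 and 3, against 7.60, 7.41 and 6.66 in control replicates 1, 2 and 3. The mutants lay within a narrow range above all controls, and control replicate 3, the array with the most marrow signal, was far below the other controls and barely above background. The difference was 0.89 (SE 0.23, 95% interval 0.36 to 1.42), 1.85-fold, with an adjusted p of 0.0401. Without control replicate 3 it was 0.61 (adjusted p = 0.0136), and without control replicates 2 and 3 it was 0.51 (adjusted p = 0.0579). The call also ended without control replicate 2 and without any of the mutant arrays, with adjusted p of up to 0.126.

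Hoxa11, needed with its paralogs for the tibia and fibula in mice, was at 6.82, 6.95 and 6.64 in mutant replicates 1, 2 and 3, and at 6.28, 6.15 and 6.43 in control replicates 1, 2 and 3. All mutant arrays were above background and 0 of 3 control arrays were, so the control level is only a bound. The measured difference was 0.52 (SE 0.12, 95% interval 0.24 to 0.79, adjusted p = 0.0269). Set against the background of the control arrays, the mutants were at least 1.2-fold higher. Its highest control value was in control replicate 3, but with all controls at background their order is not resolved. The call held in 3 of 6 fits with an array left out, with differences of 0.44 to 0.60 and adjusted p of 0.0192 to 0.103.

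Other genes of the Hoxa cluster were higher on every mutant array than on any control array without being called. Hoxa7 was at 8.01, 7.95 and 7.85 in the mutants, against 7.70, 7.64 and 7.40 in the controls, a difference of 0.36 (adjusted p = 0.0662). Hoxa9 was at 7.90, 7.88 and 8.06 in the mutants, against 7.52, 7.77 and 7.67 in the controls, a difference of 0.29 (adjusted p = 0.108). Hoxa7 and Hoxa9 are also genes of blood progenitors. Of 7 progenitor markers, Cd34 was higher in the mutants (by 0.82), Hlf was higher with all control arrays at background, and Myb was lower with all mutant arrays at background, with a median of 0.10 and a mean level of 6.74 to 6.89 in mutants and 6.99 to 7.39 in controls. The part of such cells in the Hoxa7 and Hoxa9 values was not tested.

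Hoxa6 was at 6.72, 6.57 and 6.73 in the mutants, against 6.47, 6.23 and 6.26 in the controls, around background in both (0.36, adjusted p = 0.0584). It passed the test without control replicate 1 (adjusted p = 0.0231) and with a stricter filter on dim probe sets (adjusted p = 0.0440). Hoxa4, at 7.59, 7.70 and 7.69 in the mutants and 7.49, 7.45 and 7.46 in the controls, had the tightest controls of the cluster, and its difference of 0.19 was not called (adjusted p = 0.177). Hoxa2, Hoxa3 and Hoxa5, which lie on either side of Hoxa4, were at background on every array, unlike Hoxa4, and differed by 0.16, -0.08 and 0.31. Hoxa13, a gene of the foot segment, was at 6.70, 7.04 and 7.0 in the mutants, against 6.61, 6.57 and 6.89 in the controls, a difference of 0.22 with overlapping groups (adjusted p = 0.312).

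**Figure D2:**
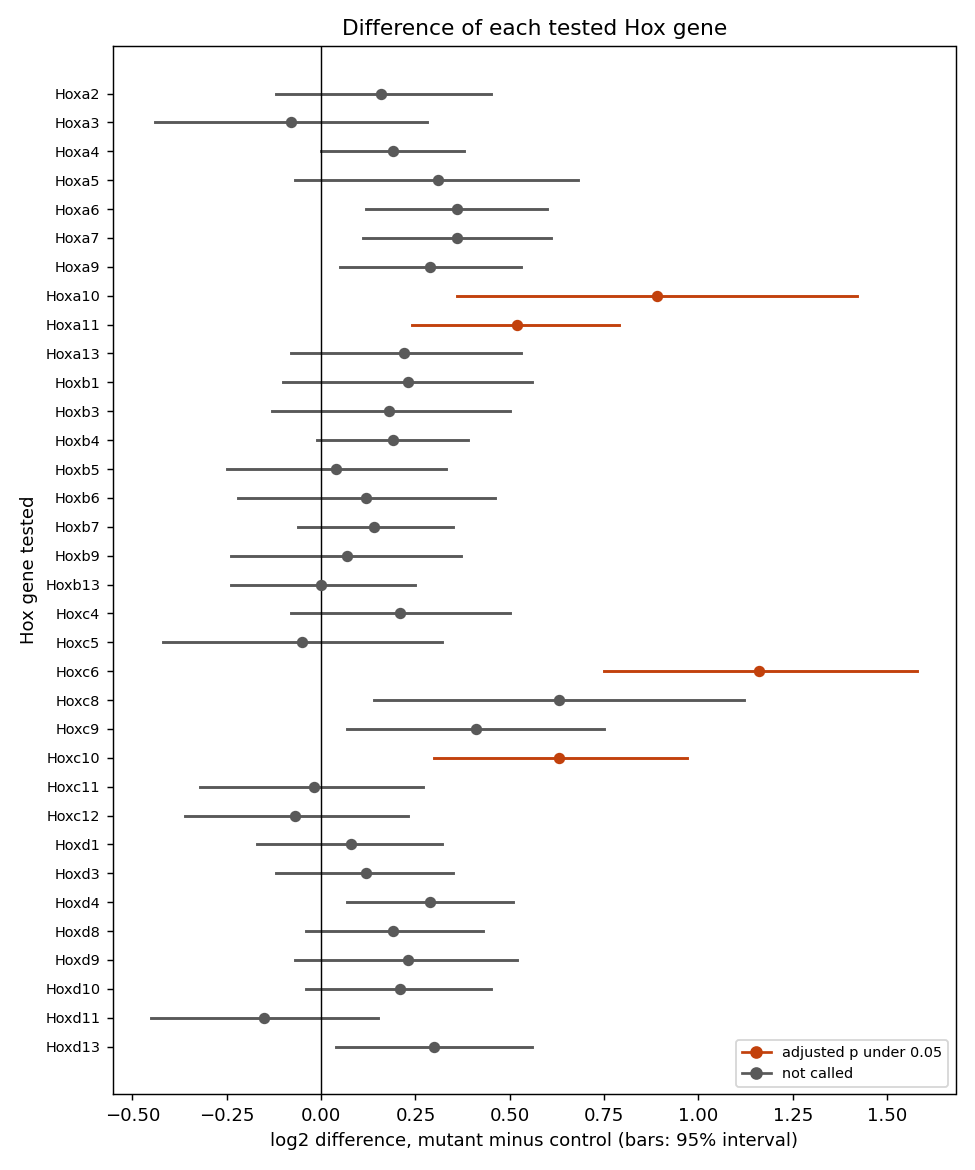
Difference of each of the 34 tested Hox genes, mutant minus control on the log2 scale, with its 95% interval from limma. Hoxa10, Hoxa11, Hoxc6 and Hoxc10 (orange) were called, and the 30 others (grey) lay between -0.15 and 0.63.

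The Hoxb cluster, which is active in the trunk and in blood progenitors and is not known for patterning the hindlimb skeleton, showed no called gene among 8 tested. Of all genes tested, 14.7% were called in either direction, and 6 of the 9 Hoxb genes measured were above background on no array. The lack of a call among so few genes therefore says little about the cluster. Differences ran from 0.00 in Hoxb13 to 0.23 in Hoxb1, and the smallest adjusted p was 0.191, in Hoxb4. Hoxb3 was the single gene of the cluster above background on all arrays, at 7.28, 7.75 and 7.45 in the mutants, against 7.20, 7.40 and 7.34 in the controls. Its groups overlapped, with a difference of 0.18 (95% interval -0.13 to 0.50, adjusted p = 0.424). Hoxb4, a regulator of blood stem cells, stayed at background, at 5.98 ± 0.02 in mutants and 5.79 ± 0.08 in controls (SD, n = 3 each). The lowest interval end in the cluster was -0.25, in Hoxb5, and the highest was 0.56, in Hoxb1. Shifts within a gene's own interval are not excluded by the test. For genes at background the interval describes the signal and sets no limit on the change of RNA. The probe set shared by Hoxb8 and Hoxb7 was above background on 0 of 6 arrays, averaging 5.16 ± 0.11 in mutants and 5.26 ± 0.40 in controls.

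The Hoxd cluster, whose posterior genes pattern the shank and foot in the mouse, also had no called gene among 8 tested, beside 14.7% of all genes called in either direction. Here too 6 of the 9 genes measured were above background on no array, so the lack of a call says little. Hoxd3 and Hoxd8 were above background on all arrays. Hoxd8 was at 7.05, 7.11 and 7.0 in the mutants, against 6.70, 6.90 and 6.97 in the controls, a difference of 0.19 (adjusted p = 0.25). The groups of Hoxd8 did not overlap, but the closest arrays were almost level. Hoxd9 was above background on 3 of 3 mutant arrays and 1 of 3 control arrays, with a difference of 0.23 (adjusted p = 0.290).

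The posterior genes Hoxd10, Hoxd11, Hoxd12 and Hoxd13 were at background on every array. Hoxd4 and Hoxd13 were higher on every mutant array than on any control array, by 0.29 (adjusted p = 0.0868) and 0.30 (adjusted p = 0.117), at levels within the background. Hoxd12, which was below the filter, ran the other way, at 5.43 ± 0.04 in mutants and 5.64 ± 0.03 in controls (SD, n = 3 each). Of the paralogs of Hoxa11, neither Hoxc11 nor Hoxd11 was detectable on any array.

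**Figure D3:**
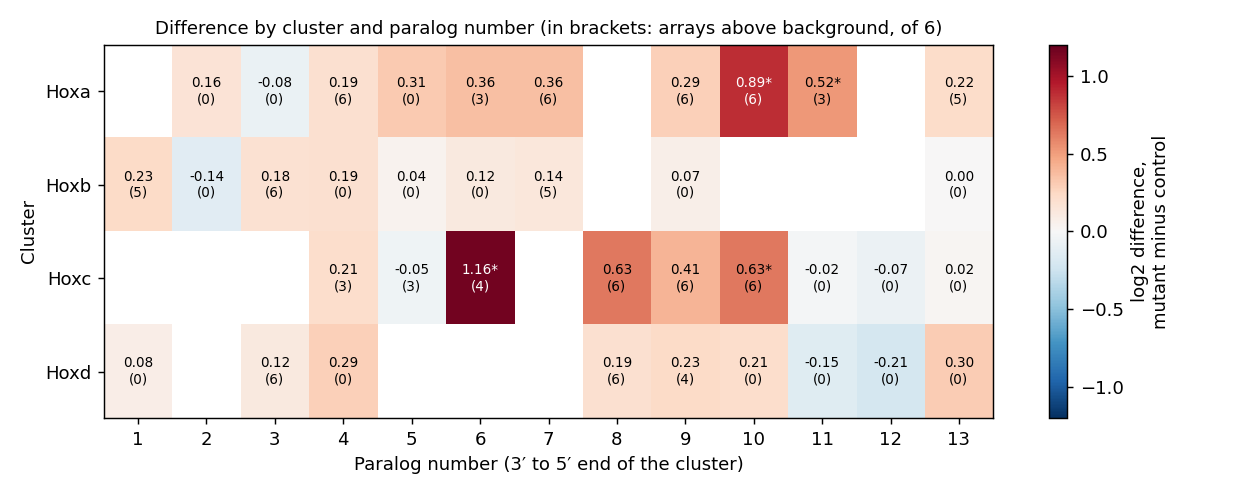
Difference of each Hox gene, mutant minus control on the log2 scale, by cluster (rows) and paralog number (columns); the number of arrays above background is in brackets, an asterisk marks an adjusted p under 0.05, and blank cells hold no gene or no measured gene. The values above 0.36 are those of Hoxa10, Hoxa11, Hoxc6, Hoxc8, Hoxc9 and Hoxc10, and the Hoxb and Hoxd rows stay within 0.30 of 0; Hoxb2, Hoxc13 and Hoxd12 were not tested.

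By paralog number, the 7 genes of groups 9 and 10 had a median difference of 0.29, with 2 called, and all 7 means were higher in the mutants. The 7 tested genes of groups 11 to 13 had a median of 0.00, with 1 called, and 4 of the 7 means were higher. Groups 5 to 8 had a median of 0.25 with 1 of 10 called, and groups 1 to 4 a median of 0.18 with 0 of 10 called. Over all genes tested, 7.84% were called higher and 55% of means were higher in the mutants. The 1 of 10 of groups 5 to 8 (10%) and the 4 of 7 means of groups 11 to 13 (57.1%) are near those shares. The counts per group are too small to read as a trend along the clusters. By cluster the medians were 0.30 for Hoxa, 0.13 for Hoxb, 0.31 for Hoxc and 0.20 for Hoxd. Dim genes weigh on each of these medians, since 7 of the 9 genes measured in groups 11 to 13 were at background on every array, against 2 of the 7 in groups 9 and 10.

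Leaving out arrays separated Hoxc6 from the other called genes. It was called in 6 of 6 fits with an array left out, Hoxa11 in 3, and Hoxa10 and Hoxc10 in 2 each. The number of calls over all genes moved as well, from 936 without mutant replicate 3 to 3282 without control replicate 1. The number of Hox genes called ranged from 1, without mutant replicate 1, mutant replicate 2 or control replicate 2, to 7, without control replicate 1. The 7 added Hoxa6, Hoxa7 and Hoxc8 to the 4, and 0 Hox genes were lower in any of these fits. Control replicate 1 had the least marrow signal of the controls, 8.61 beside 9.37 and 10.07 in replicates 2 and 3. The controls of Hoxa7 and Hoxc8 fell in the order in which that signal rose, and those of Hoxa6 did not. The part of marrow cells in the added calls was not tested.

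**Figure D4:**
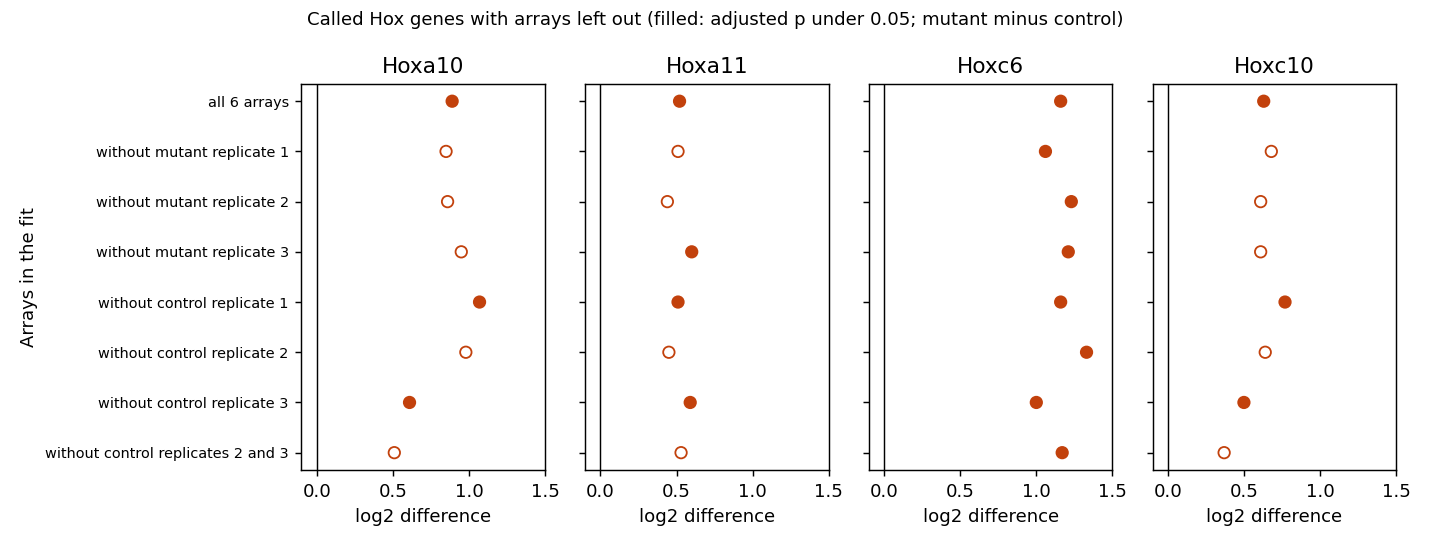
Difference of the 4 called Hox genes, mutant minus control on the log2 scale, with all 6 arrays and with arrays left out as named on the vertical axis; filled points had an adjusted p under 0.05. Hoxc6 stays at or above 1.00 and filled in every row, while Hoxa10 and Hoxc10 drop to 0.51 and 0.37 without control replicates 2 and 3.

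Markers of other cell types differed between the groups as well. Of the erythroid markers 6 of 6 were lower in the mutants and 0 of 6 were above background on all mutant arrays. Of the neutrophil markers 10 of 12 were lower and 4 were above background on all mutant arrays, and of the B lymphoid markers 6 of 8 were lower and 2 were. Higher in the mutants were 7 of 10 fibrous tissue and tendon markers, 8 of 10 endothelial, 7 of 8 macrophage, 4 of 6 smooth muscle and pericyte (1 lower) and 2 of 8 skeletal muscle markers. The fibrous mean level was 10.45 to 10.54 in mutants and 8.92 to 9.44 in controls, and the endothelial one 7.28 to 7.56 in mutants and 6.62 to 6.78 in controls. Mean levels were 8.12 to 8.55 in mutants and 7.43 to 7.66 in controls for macrophages, and 8.78 to 9.02 in mutants and 7.59 to 7.92 in controls for smooth muscle and pericytes. Of 6 osteoblast markers 1 was lower, and of 14 chondrocyte markers 1 was higher and 2 were lower. Over all genes tested, 7.84% were called higher and 6.82% lower, and the chondrocyte markers called higher (7.14%) are near that share.

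Among the controls, Hoxa10 and Hoxc10 were lowest on control replicate 3, which had the most marrow signal and the lowest fibrous mean (8.92). Hoxc6 was lowest there too, and Hoxa11 on control replicate 2, but these lowest values were at background and their order is not resolved. Of the 10 Hox genes above background throughout, 5 were lowest on control replicate 3, beside 3608 of the 9344 genes tested that were above background on all arrays. In a fit with marrow level as covariate, the differences were 0.61 for Hoxc6 and 0.94 for Hoxa11, and -0.89 for Hoxa10 and -0.50 for Hoxc10, none of them called (adjusted p = 0.238 to 0.611). Marrow level separates the groups completely, so that fit extends the trend within groups over a range that holds no array. The part of marrow, fibrous or other cells in the Hox differences was not tested.

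**Figure D5:**
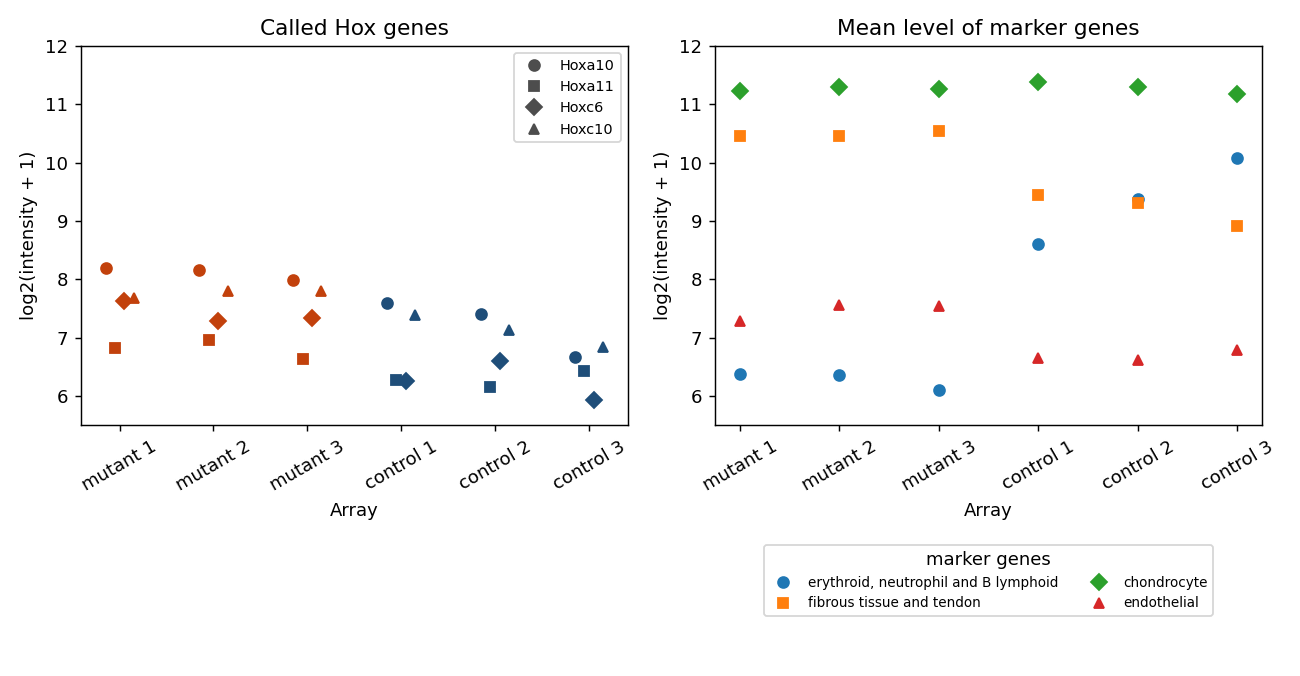
Levels of the 4 called Hox genes (left; mutant arrays orange, control arrays blue) and mean levels of marker genes of other cell types (right) on each array, as log2(intensity + 1). The marrow mean is 6.10 to 6.38 in mutants and 8.61 to 10.07 in controls, and Hoxa10 is lowest on the control array where the marrow mean is highest.

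Of 8 tested TALE cofactors of Hox proteins, which include Pbx3 and Meis1, 1 rose and none fell, with a median difference of 0.10. The 12.5% called higher, which is 1 gene, stands beside 7.84% of all genes called higher and 14.7% called in either direction. The one that rose was Pknox2, a TALE homeodomain gene, at 7.13, 6.86 and 7.08 in the mutants, against 6.42, 6.32 and 6.41 in the controls (0.64, SE 0.10, adjusted p = 0.00712). Its mutant arrays were all above background, and 1 of 3 control arrays was, and with the other controls raised to background it was higher by 0.47. Of 7 tested genes upstream of Hox clusters, 2 rose, or 28.6%, beside 7.84% of all genes called higher. Cyp26b1, an enzyme that degrades retinoic acid, rose by 0.61 (adjusted p = 0.00971). Gdf11, a ligand that sets posterior Hox domains in the mouse trunk, rose by 0.40 (adjusted p = 0.0178).

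Of 23 Polycomb and trithorax genes and their partners, which regulate the chromatin of Hox clusters, 3 fell and none rose. The 13% called lower stands beside 6.82% of all genes called lower and 14.7% called in either direction. The list was divided, with 11 means higher, 12 lower and a median of -0.04. Ezh2, the Polycomb methyltransferase of histone H3, was at 8.93, 8.93 and 8.91 in the mutants, against 9.38, 9.72 and 10.27 in the controls, and fell by 0.87 (adjusted p = 0.0288). Its controls stood in the same order as their marrow signal. Dot1l, another histone methyltransferase, fell by 0.77 (adjusted p = 0.00613). Jarid2, a subunit that helps to recruit Polycomb, fell by 0.53 (adjusted p = 0.0211). The controls of Jarid2 also stood in the order of their marrow signal, and those of Dot1l did not. The trithorax gene Kmt2a differed by -0.18 (adjusted p = 0.430).

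Non-coding genes inside the clusters were mostly at background. Of 17 listed, 9 had a probe set and 5 were tested, with 2 higher and a median of 0.16. The 40% called higher stands beside 7.84% of all genes called higher. Hottip, transcribed beyond Hoxa13 at the 5′ end of the Hoxa cluster, was at 6.88, 7.02 and 7.08 in the mutants. Its controls were at 6.62, 6.71 and 6.46 (difference 0.40, adjusted p = 0.0413). All its mutant arrays and 2 of 3 control arrays were above background. With the other control raised to background the difference was 0.34. Hoxd3os1, on the strand opposite Hoxd3, was called (adjusted p = 0.00757), but it was at background on every array, with 6.01 ± 0.21 in mutants and 5.26 ± 0.06 in controls (SD, n = 3 each), and no fold is given. The sources used here do not say whether these probe sets keep the strands apart.

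The clusters also carry the miR-10 and miR-196 genes, microRNAs known to target Hox transcripts. Their mature sequences are shown with the seed, bases 2 to 8, in capitals, from RefSeq on GRCm38.p6, to show that each pair of paralogs shares a seed across clusters. Mir10a lies on chromosome 11 and Mir10b on chromosome 2; Mir196b lies on chromosome 6, and miR-196a is made from Mir196a-1 on chromosome 11 and Mir196a-2 on chromosome 15.
mmu-miR-10a-5p: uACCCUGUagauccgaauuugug
mmu-miR-10b-5p: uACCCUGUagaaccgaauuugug
mmu-miR-196a-5p: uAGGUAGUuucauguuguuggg
mmu-miR-196b-5p: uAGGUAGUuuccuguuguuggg

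Of these genes, Mir196b alone was above background on all arrays, at 7.01 ± 0.06 in mutants and 6.85 ± 0.23 in controls (SD, n = 3 each), and it was not called (0.16, adjusted p = 0.475). Mir10b and Mir196a-1 were at background and not called, with differences of -0.19 and 0.15, and Mir10a and Mir196a-2 were below the filter. The arrays do not tell a mature microRNA from its precursor.

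Of 8 tested protein-coding neighbours of the clusters, 2 fell and none rose, with a median of 0.08. The 25% called lower stands beside 6.82% of all genes called lower. Skap2, an adaptor of blood cells beyond the 3′ end of the Hoxa cluster, was at 6.62 on each of the 3 mutant arrays. Its controls were at 7.48, 7.49 and 7.75, and it fell by 0.95 (adjusted p = 0.00146). Of the mutant arrays 2 of 3 were above background, and by little, so the mutant level is close to background. Lnpk, next to the Hoxd cluster, fell by 0.50 (adjusted p = 0.0281). Evx1 and Evx2, homeobox genes at the 5′ ends of the Hoxa and Hoxd clusters, differed by 0.17 and 0.12 (adjusted p = 0.478 and 0.438).

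Limb identity genes were read to check the hindlimb label. Pitx1, the hindlimb homeobox gene, was above background on all arrays, at 8.53, 8.75 and 8.83 in the mutants, against 8.10, 8.08 and 7.75 in the controls, and rose by 0.72 (adjusted p = 0.0114). Tbx4, the other hindlimb factor, was above background throughout as well and differed by 0.41 (adjusted p = 0.0709). Tbx5, best known as the forelimb factor, was at 7.85, 7.69 and 7.47 in the mutants, all above background, against 6.58, 5.58 and 5.62 in the controls, of which 1 was. The measured difference of Tbx5 was 1.74 (SE 0.26, adjusted p = 0.00588), and with the 2 control arrays at background raised to their background it was 1.07, or 2.09-fold. Of the 9 limb identity genes tested, 2 rose and none fell, with a median of 0.30. The 22.2% called higher stands beside 7.84% of all genes called higher.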

How the data were processed

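Probe set intensities are the values the authors deposited for 35512 probe sets on 6 Affymetrix arrays, on a linear scale (0.74 to 9001, array medians 82.4 to 90.5). Per the labels' protocols, cDNA made from 300 ng of total RNA was labelled with biotin. The summary method, background correction and normalisation are not given in the sources used here, and 0 value columns were left unused. Groups and replicate numbers came from the titles.

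Symbols came from GEO's annotation of the array and were brought up to date through RefSeq (GRCm38.p6) gene numbers: 21789 probe sets had 1 gene (21698 matched by number), 1621 several and 12102 none listed. Values were transformed to log2(intensity + 1). The dimmest 25% of probe sets by mean (below 5.56) were left out, and the brightest probe set of a gene was kept. Mutant and control were compared over 17020 genes with limma 3.58.1 in R 4.3.3 (lmFit, eBayes, two-sided, Benjamini-Hochberg over all genes, call at 0.05), after a check on simulated data. A fold change on this scale slightly understates the change of dim genes.

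The Hox genes, the gene lists and the alternatives were chosen with earlier results of these data known. Any Hox gene could be named; of the other lists, up to 4 called genes with the largest change were named, or the 2 with the smallest p, besides Stk11, Pitx1, Tbx4 and Tbx5. Pbx3, Meis1, Kmt2a, Evx1, Evx2 and the microRNA genes were named after their values were seen. Marker lists are described by their counts. A gene of the family is not reported here. The alternatives tried were a marrow covariate, a replicate block, a pseudocount of 16, leaving out arrays, quantile normalisation, centring on the median, other filters, averaging a gene's probe sets and an intensity trend.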

Additional observations from a re-analysis of the deposited data

How the results depend on the processing

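With quantile normalisation, median centring, no filter, the mean of probe sets, an intensity trend, the replicate block or a pseudocount of 16, 4 Hox genes were higher and 0 lower, and with a filter at the median 5 were higher and 0 lower. Over these 8 settings Hoxc6, Hoxa10 and Hoxc10 were called in 8 each, and Hoxa11 in 7. These settings are not independent checks. Each Hox gene had a single probe set, so averaging probe sets could not change a Hox value. The filters, the intensity trend and the replicate block also left each Hox difference as it was and altered only its p. With the replicate block Hoxa11 was not called (adjusted p = 0.0668) and Hoxc8 was (adjusted p = 0.0196), which kept the count at 4, and over all genes 2031 were called with the block, against 2496 without it. Deviations of same-numbered samples had correlations of 0.0803, 0.213 and -0.0833 for replicates 1, 2 and 3, over genes. Mutant replicate 3 correlated best with control replicate 1 (0.106). With 3 samples per group these values cannot settle whether the numbers pair samples. The labels do not say that they do, and the main fit is unpaired. Leaving out 1 array gave 1 to 7 Hox genes higher and 936 to 3282 calls over all genes. Without control replicates 2 and 3, 1 Hox gene was higher, Hoxc6 (1.17, adjusted p = 0.0125), with 1 control array in the fit. With the marrow level as a covariate 0 Hox genes and 6 genes in all were called, and Hoxa10 (-0.89, adjusted p = 0.362) and Hoxc10 (-0.50, adjusted p = 0.366) changed sign; that covariate separates the groups, and the cause of the change was not tested. Of 528 values of the 34 Hox genes over 16 alternatives, 504 kept their side of the threshold. Another 17 lost the call with the same direction, 5 gained it and 2 called values changed sign. Only the 4 called genes could lose a call, and most of the 528 values belong to the 30 genes not called. The 504 is therefore no measure of how stable the calls were. With 3 arrays per group and 18 of 37 Hox genes at background on every array, small changes of dim genes are not resolved.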
